A study of Mus musculus with 20 samples.

Results

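The genes described here are 7 transcription factors and cofactors of the B lymphocyte: Pax5, Ebf1, Spib, Pou2af1, Bach2, Bcl11a and Foxo1. A probe set counted for a gene when the array's annotation paired it with that symbol alone, and where a gene had several, the one brightest on average over the 20 arrays stood for it. All 7 genes were found, among 18193 genes on the array, with 23 probe sets between them, and all 7 were among the 14063 genes tested. RNA came from 10 populations of haematopoietic cells sorted from C57BL/6 mice, each measured on 2 arrays labelled as biological replicates, which makes 20 Affymetrix arrays (Mouse Genome 430 2.0). The populations were B (B220-positive B lymphocytes), CD4T and CD8T (T lymphocytes positive for CD4 or CD8), NKT (positive for CD3ε and NK1.1), NK (NK1.1-positive), KSL (so named by the labels), LinNeg (negative for lineage markers), Monocyte (Mac-1-positive, called monocytes/macrophages), Neutrophil (Gr-1-positive) and Erythroblast (Ter119-positive). All of them share the C57BL/6 background, and no mutation or treatment is named for any. Tissue, age, the animals behind each replicate and further gates are not given in the descriptions used here, so p-values measure only the spread between these arrays. Fewer cells of one kind in a sorted population and less RNA per cell cannot be told apart in such bulk samples.

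B lymphocytes are specified by a small network of transcription factors. Foxo1, a forkhead factor held out of the nucleus by PI3K and Akt signalling, and the E proteins act early and support Ebf1, the early B cell factor; Ebf1 and the paired-box factor Pax5 sustain each other, switch on genes of the B cell receptor, and Pax5 also silences genes of other lineages. Spib encodes Spi-B, an ETS factor close to PU.1 that acts in B cell receptor signalling and in plasmacytoid dendritic cells. Pou2af1 encodes OBF-1 (Bob.1, OCA-B), which has no DNA-binding domain that works alone and joins the octamer factors Oct-1 and Oct-2 on the octamer element of immunoglobulin and other promoters. Bach2, a bZIP repressor, holds back the plasma cell regulator Prdm1 in B cells and restrains effector genes in T cells. Bcl11a is a zinc finger repressor needed for B cell development, for stem cell function and for silencing embryonic and fetal globin genes in red cells.

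Promoters are shown because several of these factors are known to bind at each other's genes, and the pair printed first are those with an octamer core, the element on which Pou2af1 acts. Each run is the 250 bases before the start of transcription, taken from RefSeq (build GRCm38.p6) and written 5′ to 3′ on the strand of the gene. Capitals mark matches to the motifs given after the sequences.
Spib: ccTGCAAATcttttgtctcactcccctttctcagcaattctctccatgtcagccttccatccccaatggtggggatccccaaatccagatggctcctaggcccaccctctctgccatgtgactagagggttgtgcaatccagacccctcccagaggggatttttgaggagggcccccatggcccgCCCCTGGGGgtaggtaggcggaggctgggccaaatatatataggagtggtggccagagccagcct
Pou2af1: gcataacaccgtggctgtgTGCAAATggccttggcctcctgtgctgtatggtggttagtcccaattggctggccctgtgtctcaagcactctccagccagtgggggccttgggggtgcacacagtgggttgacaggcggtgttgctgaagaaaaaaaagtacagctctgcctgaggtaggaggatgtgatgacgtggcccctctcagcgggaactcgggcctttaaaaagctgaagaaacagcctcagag
Pax5: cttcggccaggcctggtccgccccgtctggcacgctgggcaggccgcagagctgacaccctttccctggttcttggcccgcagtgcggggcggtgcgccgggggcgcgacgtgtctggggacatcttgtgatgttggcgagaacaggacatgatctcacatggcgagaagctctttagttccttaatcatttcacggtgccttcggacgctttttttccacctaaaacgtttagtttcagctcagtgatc
The Spib window lies at chr7:44532072-44532321 (minus strand), the Pou2af1 window at chr9:51213440-51213689 (plus strand) and the Pax5 window at chr4:44710695-44710944 (minus strand). RefSeq's table matched all 7 genes with 8 windows, since Ebf1 has 2 starts there, and 8 motifs were searched on both strands of each. The octamer core TGCAAAT occurred in 2 of the 8 windows, 248 bases before the Spib start and 231 bases before the Pou2af1 start, and in 3.56% of 32851 mouse promoter windows of the same length. The full octamer ATGCAAAT, which contains that core, occurred in none of the 8 and in 1.6% of all windows. An EBF palindrome core, CCCNNGGG, occurred in the Spib window, as overlapping matches 65 and 64 bases before the start, and in the Foxo1 window 91 bases before the start, against 11.8% of all windows. The core of PU.1 and Spi-B sites, GAGGAA, occurred once, on the opposite strand 130 bases before the later Ebf1 start, against 23.3% of all windows. No window held the E box CAGGTG (17.2% of all windows), the Bach and AP-1 element TGANTCA (6.75%), the FOXO element TGTTTAC (3.17%) or the TATA box TATAAA (12.4%). The Pax5 window held none of the 8 motifs. Such matches describe letters in these windows only.

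Values below are the deposited probe set intensities, on a linear scale on which every array had a trimmed mean of 100. Array medians ran from 20.3 to 26.8, and 3′ to 5′ ratios of the control probe sets from 2.36 to 6.10 for Gapdh and from 1.34 to 2.73 for Actb. Differences are of log2(intensity + 6.75), from 1 limma fit over all 20 arrays, and a difference was called at a Benjamini-Hochberg adjusted p under 0.05 and a size of at least 1 on that scale; the added constant makes differences of dim probe sets smaller. The summed intensity of 7 B cell markers, among them Cd79a, Ms4a1 and Cd22, was 25000 and 21650 in the B arrays, against 686 and 890 in the NK arrays, 308 and 400 in the NKT arrays and from 135 to 284.5 in the arrays of the other 7 populations. B220 is also found on plasmacytoid dendritic cells, whose 7 markers summed to 452 and 413 in B, against 406 to 1670 in the arrays of the other 9 populations, with Siglech at 23.7 and 21.9 in B, against 2.83 to 43.2 in the others. T cell markers (6) summed to 66.7 and 77.6 in B, against 13640 and 12740 in CD4T. The NK arrays also held the highest sums of 5 monocyte and macrophage markers (14300 and 11980, against 5110 and 8818 in Monocyte) and neutrophil marker sums of 13880 and 11010, and the Monocyte arrays held neutrophil marker sums of 52550 and 43000, near the 67890 and 56200 of Neutrophil.

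All 7 genes differed among the 10 populations by limma's F test, as did 76.8% of all genes tested. On the chosen probe sets all 7 had their highest mean level in B, and the share of all genes highest in B was not computed. For Foxo1 and Bcl11a that rank was not beyond the spread. In the limma fit Foxo1 in B minus CD4T was 0.09 (adjusted p = 0.898), and Bcl11a in B minus KSL was 0.47 (adjusted p = 0.325). The distance between the highest and lowest population mean ran from 4.75 (Pax5) to 8.24 (Spib) on the log2 scale, beside a median of 2.15 and a 90th percentile of 5.12 over all genes. What separated the 7 was the level outside B, which took 3 forms. Pax5, Ebf1, Spib and Pou2af1 were bright in B and far dimmer in the other 9 populations. Among these 9, Pou2af1 was itself graded, with means from 126 in CD8T down to 5.29 in KSL. Bach2 and Foxo1 were graded, with T, NKT and NK cells next to B. Bcl11a was bright in B, KSL and LinNeg together.

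**Figure D1:**
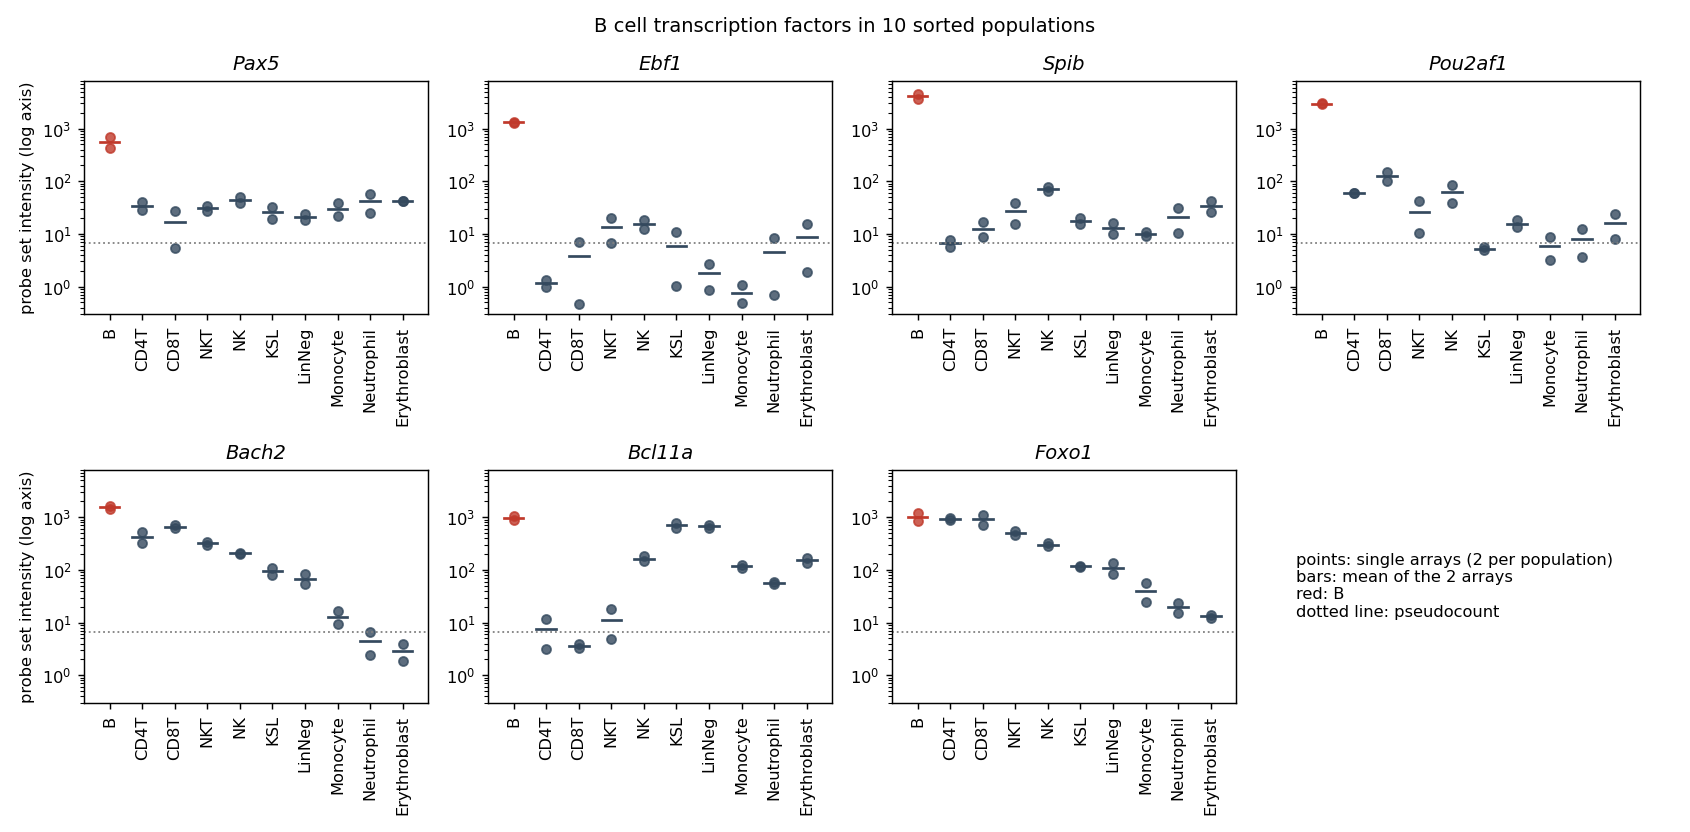
Probe set intensity (log axis) of the 7 genes in each of the 20 arrays, with 1 panel per gene and B at the left of each panel; points are arrays, bars the mean of the 2 arrays of a population, and the dotted line is the added constant of 6.75. In the panels of Pax5, Ebf1, Spib and Pou2af1 both B arrays stand clear of all others, whereas Foxo1 overlaps between B, CD4T and CD8T and Bcl11a in KSL and LinNeg reaches 770.8 against 870.9 in the lower B array.

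Ebf1, one of the earliest factors of B cell specification, had intensities of 1298 and 1339 in B, against 12.4 and 18.8 in NK, the highest other population, and 1.07 and 0.479 in Monocyte, the lowest. None of the 18 arrays outside B exceeded 19.9, so the groups did not overlap. The difference ran from 5.90 ± 0.54 (SE) over NK (adjusted p = 8.59e-08) to 7.46 ± 0.54 over Monocyte (adjusted p = 2.06e-09). Of its 5 probe sets, 4 passed the filter on dim signal and all 4 were called higher in B than in each of the other 9 populations; the dimmest, at 25.2 and 17.3 in B, did not pass it.

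Spib, the gene of the ETS factor Spi-B, had 4448 and 3702 in B. NK was next with 66.1 and 79.5, followed by Erythroblast with 41.8 and 26.5, and CD4T was lowest with 7.78 and 5.64. Both B arrays therefore lay far above all others, by 5.68 ± 0.42 over NK (adjusted p = 5.97e-09) and by 8.24 ± 0.42 over CD4T (adjusted p = 4.31e-11). Among the dim populations NK stood higher than 7, all but Erythroblast, for instance by 1.69 over KSL (adjusted p = 0.00436) and by 2.56 over CD4T. The NK arrays were also those with the highest B cell marker sums outside B, among them Ms4a1 (the gene of CD20) at 202 and 371 in NK, against 8633 and 7504 in B; the part of these in the Spib signal was not tested. In Spib, 94.98% of the intensity summed over the 10 population means came from B, and in Ebf1 95.9%.

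Pou2af1, the octamer cofactor, had 2870 and 3057 in B, against 100 and 151 in CD8T, 60.9 and 60.4 in CD4T, 38.0 and 85.8 in NK and 4.89 and 5.68 in KSL, the lowest. The B arrays again lay clear of the rest, by 4.51 ± 0.50 over CD8T (adjusted p = 1.22e-06) and by 7.95 ± 0.50 over KSL (adjusted p = 6.8e-10). Outside B, 16 of 36 pairs of populations were called for Pou2af1, with CD8T, CD4T or NK the higher in each. Over all 45 pairs, those with B included, 27.1% were called for all genes. CD8T exceeded KSL by 3.43 (adjusted p = 2.39e-05) and NKT by 2.16 (adjusted p = 0.0165), and CD4T exceeded KSL by 2.49 (adjusted p = 0.000628). NK, with B cell marker sums of 686 and 890, exceeded KSL by 2.42 (adjusted p = 0.000849). The B cell marker sums were 284.5 and 278.5 in CD8T and 220 and 174 in CD4T, against 220 and 221 in KSL, and their part in these differences was not tested.

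Pax5, which commits cells to the B lineage, had 678 and 437 in B on its brighter probe set. The next population, NK, had 38.6 and 49.96, and CD8T was lowest with 5.36 and 27.8, so no array outside B exceeded the 58.5 of 1 Neutrophil array. The difference was 3.44 ± 0.46 over NK (adjusted p = 1.26e-05) and 4.75 ± 0.46 over CD8T (adjusted p = 2.15e-07). B held 66.0% of the intensity summed over the population means on this probe set. The second Pax5 probe set read 78.1 and 74.7 in B, against 1.52 to 10.9 in all other arrays, and was also called higher in B than in each of the other 9 populations. Among the 36 pairs of populations without B, 3 were called for Pax5, all with CD8T the lower, and 1 for Ebf1, NK over Monocyte. These calls rest on dim values, and the 2 CD8T arrays of Pax5 lay far apart. On the second Pax5 probe set CD8T read 3.95 and 4.59, inside the range of the other arrays outside B. The share of all genes called over these 36 pairs was not computed. Over all 45 pairs it was 27.1%.

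Bach2, the repressor that delays plasma cell differentiation, was graded rather than confined to B. Its intensities were 1456 and 1659 in B, against 715 and 614 in CD8T, 322 and 521 in CD4T, 345 and 302 in NKT, 205 and 211 in NK, 81.2 and 109 in KSL, and 53.3 and 83.9 in LinNeg. Monocyte had 9.32 and 16.6, Neutrophil 6.74 and 2.42, and Erythroblast 3.90 and 1.86. Both B arrays were above every other array, the 8 arrays of T, NKT and NK cells came next, the progenitors followed, and the myeloid and erythroid arrays were the dimmest. B exceeded CD8T by 1.22 ± 0.30 (adjusted p = 0.00639), CD4T by 1.91 ± 0.30 (adjusted p = 9.58e-05) and Erythroblast by 7.35 ± 0.30 (adjusted p = 1.7e-13). The difference from CD8T was near the size threshold: it missed the call without B replicate 2 (1.13, adjusted p = 0.069) and without CD8T replicate 2 (1.11, adjusted p = 0.0658). All 3 Bach2 probe sets gave B over CD8T, by 1.22, 1.38 and 1.39, each called in the fit over probe sets. On 2 of the 3 probe sets Bach2 was called higher in B than in all 9 populations; on the dimmest, 1445460_at, B over CD4T was 1.31 and was not called (adjusted p = 0.0606).

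Foxo1 followed nearly the same order but without a separate B level. It had 1181 and 835 in B, against 887 and 979 in CD4T, 1098 and 722 in CD8T, 466 and 546 in NKT, and 282 and 327 in NK. KSL had 118 and 116, LinNeg 83.4 and 138, Monocyte 24.1 and 56.8, Neutrophil 15.2 and 23.8, and Erythroblast 12.3 and 14.3. The arrays of B, CD4T and CD8T overlapped, whereas NKT, NK, the progenitors and the myeloid and erythroid populations all lay below them. B minus CD4T was 0.09 with a 95% interval from -0.57 to 0.75 (adjusted p = 0.898), and B minus CD8T was 0.16 with an interval from -0.50 to 0.81 (adjusted p = 0.821). Over NKT the difference was 0.97 (adjusted p = 0.0372), just under the size needed for a call, and over NK it was 1.69 ± 0.31 (adjusted p = 0.000475). Over NK the call held on the second probe set (1.82, adjusted p = 0.000114) and not on the third (1.38, adjusted p = 0.0731). Differences from the other populations ran from 3.01 over KSL to 5.64 over Erythroblast (adjusted p = 1.32e-11).

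Across the 10 population means of the log2 values, Bach2 and Foxo1 had a Pearson r of 0.983, and of 0.99 over the 9 populations without B. The points share their arrays and the scaling of each array, and these r values are descriptions. Among the other 20 pairs of the 7 genes only Ebf1 with Spib reached a higher r over the 10 populations, 0.991. That pair had 0.909 without B, but Ebf1 was dim there, with means from 0.772 in Monocyte to 15.6 in NK. Its replicates could also lie far apart, as in KSL (10.9 and 1.04). Of the 36 pairs of populations without B, 1 was called for Ebf1 and 11 for Spib. The r values of Ebf1 without B therefore rest on dim values. Pax5 with Ebf1 had 0.958 with B and 0.438 without it, and Pax5 with Spib 0.96 and 0.561. Pou2af1 had an r of 0.697 with Foxo1 and 0.771 with Bach2 over the 10 populations, and of 0.795 and 0.773 without B. Bcl11a and Foxo1 had an r of -0.288 over the 10 populations and of -0.573 without B.

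**Figure D2:**
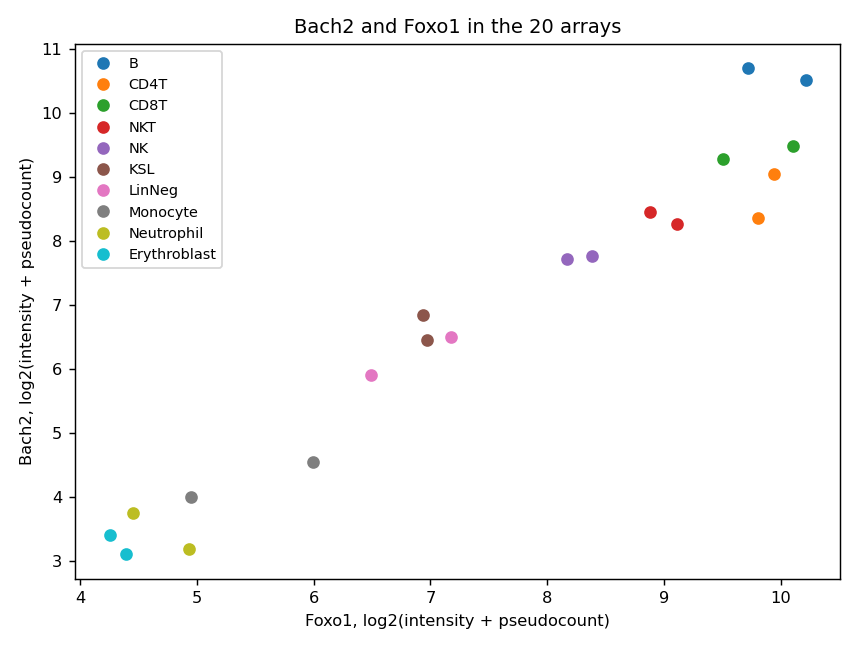
Level of Bach2 against Foxo1 in each of the 20 arrays, both axes log2(intensity + 6.75), coloured by population. The arrays run from Erythroblast and Neutrophil at the lower left through Monocyte, LinNeg, KSL, NK and NKT to the T cells and B at the upper right, and B differs from CD4T and CD8T in Bach2 but overlaps them in Foxo1.

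Steps in the graded order were called at 3 places for Bach2 and 2 for Foxo1 on the chosen probe sets. Both genes dropped between NK and KSL, by 1.095 for Bach2 (adjusted p = 0.00786) and 1.33 for Foxo1 (adjusted p = 0.00272). They dropped again between LinNeg and Monocyte, by 1.93 for Bach2 (adjusted p = 3.28e-05) and 1.37 for Foxo1 (adjusted p = 0.0015). The third step of Bach2 was B over CD8T. Other probe sets did not repeat all of these steps in the fit over probe sets. Between NK and KSL, Bach2 differed by 0.21 (adjusted p = 0.706) on its second probe set and by -0.26 (adjusted p = 0.749) on the third, and Foxo1 by 1.62 (adjusted p = 0.000292) on its second and 0.26 (adjusted p = 0.777) on the third. Between LinNeg and Monocyte, Bach2 differed by 1.02 (adjusted p = 0.0166) on its second probe set and by 0.003 (adjusted p = 0.998) on the third, and Foxo1 by -0.08 (adjusted p = 0.872) on its second and 1.34 (adjusted p = 0.0494) on the third. Of the 3 probe sets of each gene above the filter, the chosen one alone gave both steps, and the differences between probe sets were not tested. The NK arrays, in which both genes lay above the progenitors, also held the neutrophil and monocyte marker sums given above, while Bach2 and Foxo1 were dim in the Neutrophil and Monocyte arrays themselves.

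Bcl11a had 871 and 1078 in B, against 627 and 771 in KSL and 729 and 622 in LinNeg on its brightest probe set. NK had 146 and 181, Erythroblast 137 and 167, Monocyte 111 and 123, and Neutrophil 53.9 and 57.9. T and NKT arrays were dim, with 4.84 and 18.1 in NKT, 11.97 and 3.11 in CD4T and 3.85 and 3.33 in CD8T. Both B arrays were above all 4 progenitor arrays, but by little: B minus KSL was 0.47 with a 95% interval from -0.22 to 1.17 (adjusted p = 0.325), and B minus LinNeg 0.52 with an interval from -0.18 to 1.22 (adjusted p = 0.258). B exceeded the other 7 populations, from 2.53 ± 0.33 over NK (adjusted p = 1.09e-05) to 6.56 ± 0.33 over CD8T (adjusted p = 3.74e-11). In the order of levels 2 neighbouring steps were called, LinNeg over NK by 2.01 (adjusted p = 9.51e-05) and Neutrophil over NKT by 1.88 (adjusted p = 1e-04). KSL exceeded Erythroblast by 2.15 on this probe set (adjusted p = 1.62e-05). On 1456632_at Erythroblast read 30.7 and 19.4, against 358 and 473 in KSL.

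Probe sets of Bcl11a gave different answers on B against the progenitors. The array carries 7 of them, of which 6 passed the filter, and they were compared in a fit over 31668 probe sets in which 7.94% were called higher in B than in KSL and 11.1% higher in B than in LinNeg. Probe set 1456632_at read 1271 and 1232 in B, against 358 and 473 in KSL and 368 and 344 in LinNeg, and was called higher in B than in KSL by 1.59 ± 0.35 (adjusted p = 0.00211) and than in LinNeg by 1.79 (adjusted p = 0.000585). Probe set 1457072_at read 685 and 926 in B, against 292 and 344 in KSL and 225 and 237 in LinNeg, with differences of 1.31 ± 0.47 (adjusted p = 0.0475) and 1.76 (adjusted p = 0.00717). In contrast, 1426552_a_at read 96.4 and 144 in B, against 92.0 and 112 in KSL and 96.2 and 91.3 in LinNeg, with differences of 0.20 (adjusted p = 0.779) and 0.31 (adjusted p = 0.627). The chosen probe set, 1419406_a_at, was not called in either comparison. B was therefore called higher than all 9 other populations on 2 of the 6 probe sets, and on the other 4, of which a pair read at most 61.7 in B, it was not called over KSL. That dim pair also missed calls outside the progenitors. On 1447335_x_at B was not called over CD4T (0.23, adjusted p = 0.856), CD8T, NKT, NK, Monocyte or Erythroblast. On 1447334_at it was not called over NKT, NK, Monocyte or Erythroblast, but was called over LinNeg (1.89, adjusted p = 0.00964). Which transcripts each probe set reads is not given in the files, and the difference between probe sets was not tested.

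**Figure D3:**
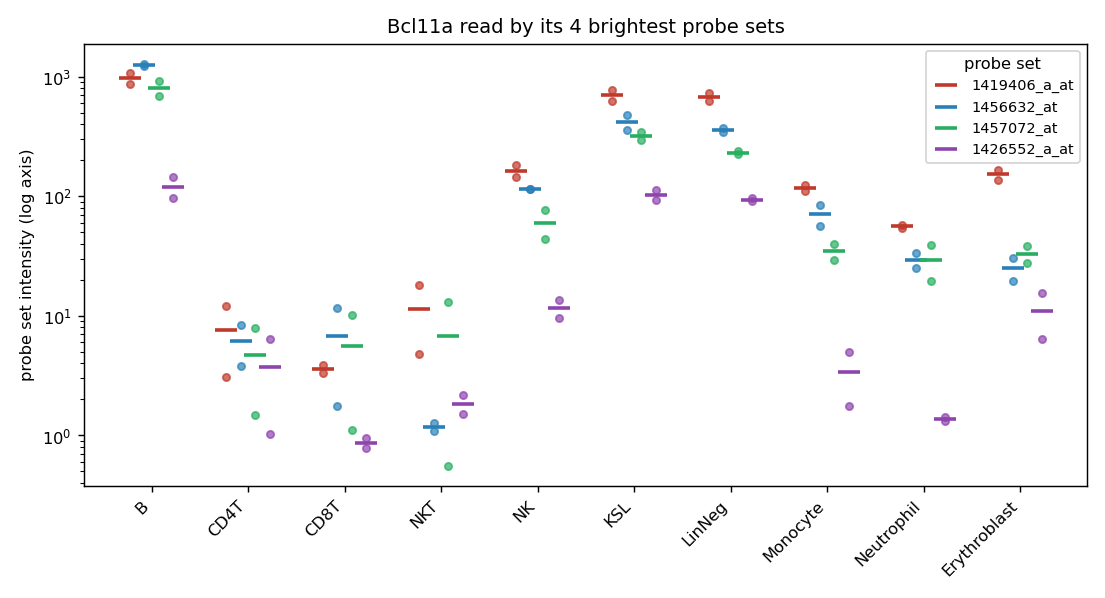
Intensity (log axis) of the 4 brightest Bcl11a probe sets in each population; points are arrays and bars the mean of 2. Within the red probe set, and within the purple one, the levels of B, KSL and LinNeg lie close together. On the blue and green ones B stands further above KSL and LinNeg. All 4 have their highest mean in B and are dim in CD4T, CD8T and NKT.

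Counted together, 6 of the 7 genes were called higher in B than in CD4T, as were 5.67% of all genes tested. The count was also 6 against CD8T (6.02% of all genes), NKT (5.47%), KSL (6.98%) and LinNeg (8.97%). It was 7 against NK (4.83%), Monocyte (13.8%), Neutrophil (21.1%) and Erythroblast (27%). Foxo1 was the gene not called against CD4T, CD8T and NKT, and Bcl11a the gene not called against KSL and LinNeg. The median difference of the 7 was 5.46 over CD4T, where the median of all genes was -0.07, 4.11 over KSL (all genes -0.10), 3.44 over NK (all genes 0.05) and 6.96 over Neutrophil (all genes 0.08). Pax5, Ebf1, Spib, Pou2af1 and Bach2, 5 of the 7, were called higher in B than in each of the other 9 populations, as were 157 genes or 1.12% of those tested. With both NK arrays left out the count against the other 8 populations was also 5.

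**Figure D4:**
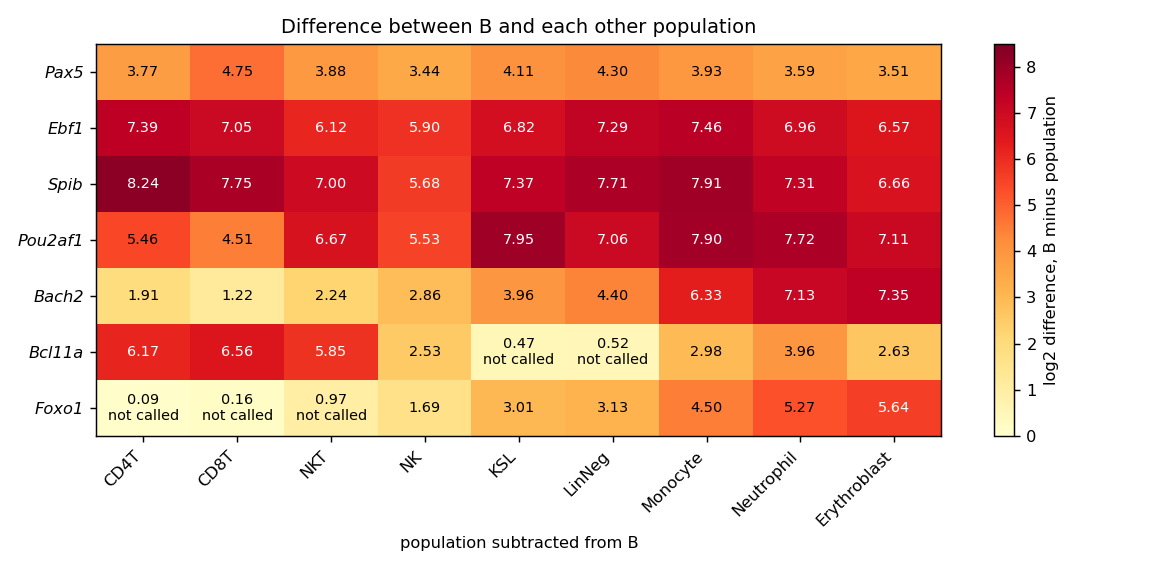
Difference on the log2 scale between B and each other population for the 7 genes, with rows for genes and columns for the population subtracted from B. Darker cells are larger differences, and "not called" marks the 5 of 63 cells that missed the threshold, Bcl11a over KSL and LinNeg and Foxo1 over CD4T, CD8T and NKT.

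Between KSL and LinNeg, the immature populations, none of the 7 genes was called in either direction, beside 5.53% of all genes. KSL minus LinNeg was 0.05 for Bcl11a with a 95% interval from -0.65 to 0.75, 0.45 for Bach2 (-0.18 to 1.08) and 0.11 for Foxo1 (-0.54 to 0.77). Pou2af1 had the largest difference of the 7, -0.89, with an interval from -1.93 to 0.15. In the order of levels of each gene, 11 of 63 neighbouring pairs were called, where 4.9% of such neighbouring pairs were called over all genes. Over all pairs of populations, 174 of 315 (55.2%) were called for the 7 genes and 27.1% for all genes. Pax5, Ebf1, Spib and Pou2af1 each had 1 such step, from B down to the next population.

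The genes most like each factor, by Pearson r over the 10 population means, were as follows. Fcrla, an Fc receptor-like gene of B cells, was among the 3 most like Pax5 (0.967), Ebf1 (0.983) and Spib (0.983), with a mean of 1971 in B and 30.7 in NK, its next population. Fcmr, the IgM Fc receptor, led for Pax5 (0.972), with 4664 in B and 116 in NK. Syvn1 was also on the list of Pax5 (0.965), with 824 in B and 239 in Erythroblast, its next population. Klhl14 (0.9825) was on the list of Ebf1, and Ebf1 and Spib were on each other's. Ly6d, a surface marker of B cell progenitors, stood at 0.979 for Spib, with 4554 in B and 102 in NK. Ighv14-2, an immunoglobulin heavy chain variable segment, was the most like Pou2af1 (0.976), followed by Akap12 (0.944) and Blk (0.935). For Bach2 the list held Sbk1 (0.990), Foxo1 (0.983) and Cnp (0.978), and for Foxo1 P2ry10 (0.990), Ablim1 (0.987) and Macf1 (0.987). No gene matched Bcl11a as closely, the highest r being 0.897 for Phka1, 0.890 for Zfp229 and 0.883 for Cbfa2t3. Cbfa2t3 had means of 272 in B and 320 in KSL.

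Genes that Ebf1 and Pax5 are known to activate were high in B. Of 13 such genes 12 were tested, and 10 were called higher in B in each of the 9 comparisons, as were 1.12% of all genes. Median differences were 5.40 over CD4T, 5.66 over KSL and 5.49 over Monocyte. Cd79a, Cd79b, Cd22, Blnk, Fcer2a and Cr2 are also among the B cell markers summed above, so this count is not separate from that check of the label. Cd79a, a signalling chain of the B cell receptor, averaged 1361 ± 38.7 in B and 10.1 ± 1.36 in CD4T (SD, n = 2 each). Cr2, the complement receptor CD21 of mature B cells, had 518 and 521 in B, against 8.69 and 8.57 in CD4T. The exceptions were Vpreb1 and Igll1, which encode the surrogate light chain of pre-B cells and were called in none of the 9 comparisons: Vpreb1 had 8.06 and 10.9 in B, against 26.0 and 21.7 in KSL, and Igll1 39.3 and 28.3 in B, against 13.02 and 18.2 in KSL. Rag1, the recombinase gene used in the same stages, was low in B at 46.3 and 52.2, though called higher there than in 7 populations.

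Of the genes that Pax5 is known to repress, some were lower in B and some were not. Among 6 tested, 3 were lower and none higher in B than in CD4T, beside 7.66% and 5.67% of all genes. Against KSL 4 were lower and 1 higher (14.1% and 6.98% of all genes), and against Monocyte 3 were lower and 2 higher (13.8% each way). Against Erythroblast 1 was lower and 2 were higher, beside 27% of all genes called higher. The share of all genes called lower in B than in Erythroblast was not computed. Emb (embigin) had 29.8 and 26.8 in B, against 1310 and 1402 in CD4T and 798 and 700 in KSL, and was lower in B than in 8 of the 9 populations, all but Erythroblast. Cd28, the T cell costimulatory receptor, averaged 14.1 ± 1.06 in B and 1670 ± 195 in CD4T (SD, n = 2 each). Csf1r, the receptor for the macrophage growth factor, had 42.2 and 40.0 in B, against 3737 and 5948 in Monocyte and 7004 and 5725 in NK, and Notch1, which drives the T cell fate, averaged 107 in B and 596 in CD4T. Flt3, a cytokine receptor of early progenitors, was lower in B than in KSL and LinNeg only. Grap2, a T cell adaptor, was lower in B than in CD8T and Erythroblast and higher than in KSL, Monocyte and Neutrophil.

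Of 15 partner transcription factors tested, 9 were higher and 1 lower in B than in CD4T, beside 5.67% and 7.66% of all genes. Against KSL 8 were higher and 2 lower (6.98% and 14.1%), and against Monocyte 10 were higher and 1 lower (13.8% each way). Irf4 was the 1 partner higher in B than in all 9 populations (1.12% of all genes). The E protein gene Tcf3 had 487 and 484 in B, against 141 and 127 in CD4T (a difference of 1.80 ± 0.22, adjusted p = 4.95e-06), and was called in 8 comparisons. Mef2c, a MADS factor of B cells and progenitors, was high in B, in the immature populations and in NK. It had 1285 and 1258 in B, 729 and 867 in KSL, 339.5 and 531.5 in LinNeg and 604.5 and 455.5 in NK. In CD4T it had 0.912 and 7.02, and it was not called between B and KSL (0.67, adjusted p = 0.167). Ikzf1, the Ikaros gene, was called in none of the 9 comparisons, with means of 1899 in B, 1886 in CD4T and 2458 in CD8T. Its level was not particular to lymphoid cells, with means of 2214 in Monocyte, 2218 in Neutrophil, 1134 in KSL and 947 in Erythroblast. Lef1, a Wnt pathway factor of T cells, was lower in B than in CD4T by 2.56 on the log2 scale (log2 difference -2.56, adjusted p = 1.08e-05), with means of 79.4 in B and 512 in CD4T.

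**Figure D5:**
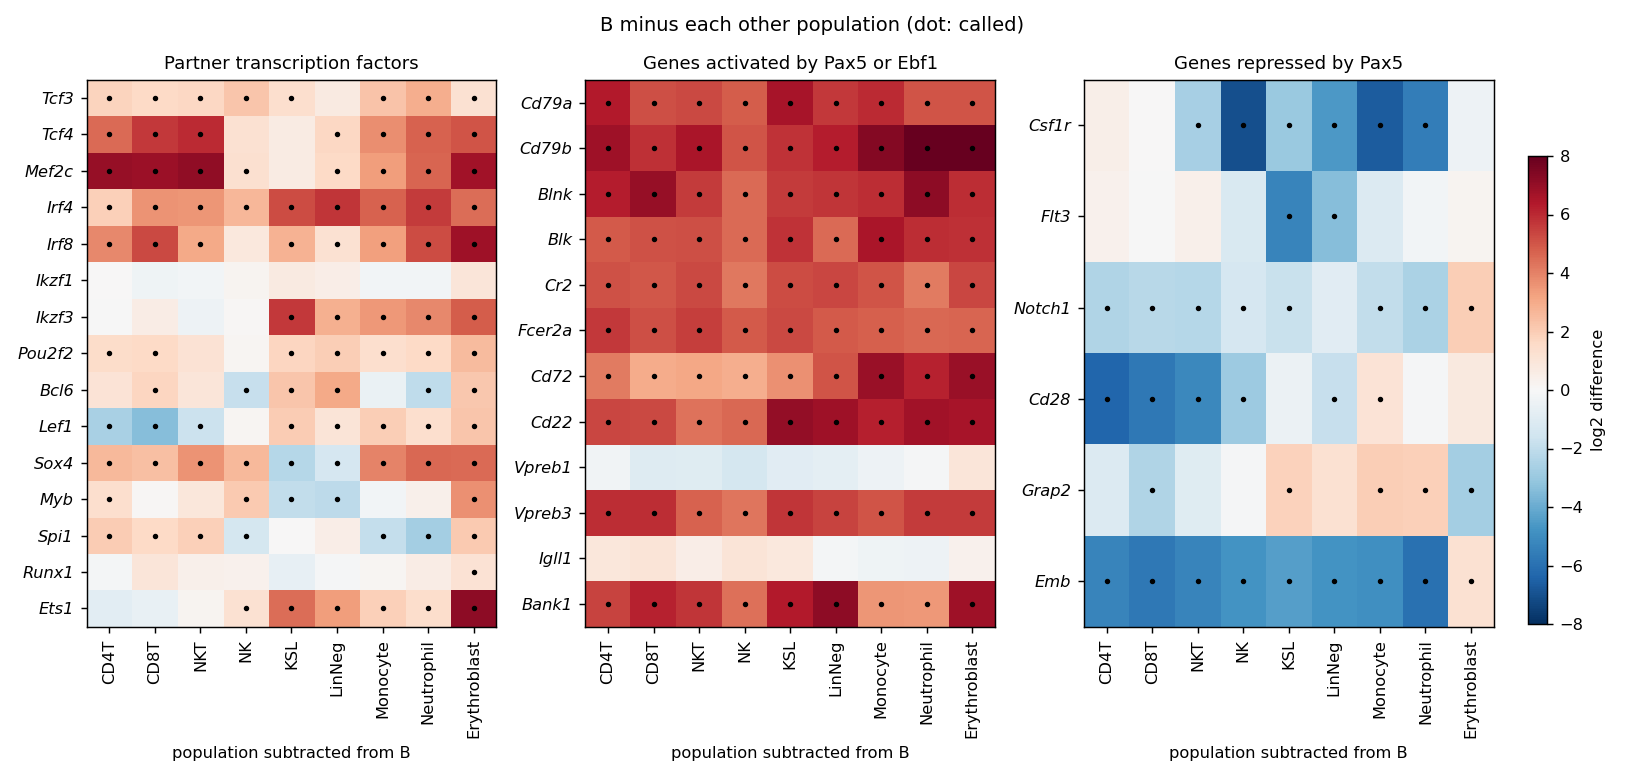
Difference on the log2 scale between B and each other population (columns) for partner transcription factors, genes activated by Pax5 or Ebf1, and genes repressed by Pax5 (rows); red is higher in B, blue lower, and a dot marks a call. The activated genes are red in every column except Vpreb1 and Igll1, and Emb is blue in every column except Erythroblast.

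Targets of Foxo1 in lymphocytes did not share 1 pattern. Of 7 tested, 2 were higher and 1 lower in B than in CD4T (5.67% and 7.66% of all genes), 5 higher and none lower than in KSL (6.98% and 14.1%), and 4 higher and 1 lower than in Monocyte (13.8% each way). Btla, an inhibitory receptor, was higher in B than in all 9 populations, with 5643 and 4837 in B, against 1165 and 1337 in CD4T. Klf2 and S1pr1, which govern recirculation, had means of 1708 and 329 in B, against 1211 and 396 in CD4T, and neither was called between these populations. Il7r, the interleukin-7 receptor chain, had 32.2 and 51.7 in B, against 5031 and 6523 in CD4T, a log2 difference of -6.91 (adjusted p = 2.57e-10), although Foxo1 itself was not called between B and CD4T.

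Among genes tied to Pou2af1 and the octamer element, 3 of 4 were higher in B than in CD4T, KSL and Monocyte (5.67%, 6.98% and 13.8% of all genes). Cd79b and Cxcr5 were higher in B than in all 9 populations. Of these genes, Cd79b also counted among those activated by Ebf1 or Pax5, and S1pr1 among the Foxo1 targets. Cxcr5, the follicle homing receptor, had 841 and 683 in B, against 177 and 142 in CD4T. Of 6 genes of the plasma cell programme, 4 were higher and 1 lower in B than in CD4T (5.67% and 7.66% of all genes), 3 higher and none lower than in KSL (6.98% and 14.1%), and 4 higher and 1 lower than in Monocyte (13.8% each way). Prdm1, the plasma cell regulator that Bach2 represses, had 32.0 and 22.6 in B, against 164 and 156 in CD4T, and was called higher in B than in no population and lower than in 3. Irf4 and Mzb1 of the same list were higher in B than in all 9 populations, Mzb1 with 1502 and 1451 in B, against 85.2 and 72.5 in LinNeg. Jchain, which joins secreted immunoglobulin, had 632 and 379 in B, against 3138 and 2777 in LinNeg. Xbp1, which expands the secretory pathway, was higher in B than in 2 populations and lower than in 1, with 1340 and 1161 in B, against 3248 and 3019 in Monocyte. Sdc1, the plasma cell surface marker CD138, was higher in B than in 6 populations, with 43.2 and 41.6 in B, against 64.2 and 66.2 in KSL.

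The embryonic globin genes that Bcl11a represses were dim in B. Hbb-y had 1.08 and 0.311 in B, against 112 and 52.2 in Erythroblast, and Hbb-bh1 had 7.82 and 1.47 in B, against 58.2 and 39.7 in Erythroblast. Both were lower in B than in Erythroblast alone, where Bcl11a read 137 and 167 on its brightest probe set. Other Bcl11a probe sets read lower in Erythroblast, among them 1456632_at with 30.7 and 19.4, against 1271 and 1232 in B. Probe set 1457072_at read 38.2 and 27.6 in Erythroblast, against 685 and 926 in B. The share of all genes called lower in B than in Erythroblast was not computed. Hba-x, also of this list, did not pass the filter. Its arrays overlapped, with 2.97 and 10.4 in B and 23.7 and 8.21 in Erythroblast.

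Close relatives of the 7 genes were described beside them. Of 17 relatives 11 were tested, and 1 was higher and 2 lower in B than in CD4T, none higher and 2 lower than in KSL, and none higher and 2 lower than in Monocyte. Over all genes the shares called higher and lower were 5.67% and 7.66% against CD4T, 6.98% and 14.1% against KSL, and 13.8% each way against Monocyte, so these counts lay near the background. Bcl11b, the T lineage counterpart of Bcl11a, averaged 3.06 ± 0.2998 in B and 2964 ± 214 in CD4T (SD, n = 2 each), where Bcl11a stood at 975 and 7.54, so that the 2 paralogs were high in different populations. Bach1 had 253 and 394 in B, against 2024 and 1934 in Neutrophil and 1292 and 1615 in Monocyte, where Bach2 was dim. Spi1, the PU.1 gene, averaged 148 in B, 1025 in Neutrophil and 578 in Monocyte, and was higher in B than in 4 populations and lower than in 3. Foxo3 and Foxo4 were called higher in B in no comparison; Foxo4 was lower in B than in 3 populations, with 45.5 and 51.1 in B, against 374 and 282 in Erythroblast.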

How the data were processed

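Per the labels' protocols, ISOGEN was used for the RNA, and cRNA from the equivalent of 3000 cells was amplified in 2 cycles and labelled with biotin. The authors deposited linear intensities for 45101 probe sets on 20 arrays, from 0.0251 to 19431. How they were summarised, corrected for background and scaled is not given in the sources used here. Each array had a mean of 100 without its lowest and highest 2%. Controls made up 64 probe sets; 34945 carried 1 gene symbol, 932 several and 9160 none; no symbol was updated through RefSeq (GRCm38.p6), where 204 were not found.

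From these, log2(intensity + 6.75) was computed, where 6.75 is the 25th percentile of all values. Genes whose highest population mean exceeded the median of all values (4.89, log2 scale) were tested with limma 3.58.1 in R 4.3.3 (lmFit and eBayes with trend, 10 residual degrees of freedom), with 1 factor of 10 populations and all 45 pairs as contrasts, and Benjamini-Hochberg adjustment within each contrast over 14063 genes. The script was tested on simulated data. The number of arrays, 2 per population, limits the precision. Replicates correlated at 0.954 to 0.972 and arrays of different populations at up to 0.948.

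The 7 genes, the lists, the tests and the rule for named genes (the 7, the 3 genes most like each by Pearson r over population means with clone names passed over, and members of the lists) were chosen with earlier results of these data known. Some list genes, among them Pou2f1, Foxo6 and Pax2, were not analysed here. Alternatives changed the added constant, filter, normalization, choice of probe set, trend, size threshold and arrays used.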

Additional observations from a re-analysis of the deposited data

How the results depend on the processing

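Counts of the 7 genes called higher in B moved little. With 1 array left out at a time (20 settings), the count was 6 against CD4T, 5 to 6 against CD8T, 6 to 7 against NKT, 6 against KSL and LinNeg, and 7 against NK, Monocyte, Neutrophil and Erythroblast. The count against all 9 populations was 4 to 5, all 7 genes differed among populations, and 10 to 12 neighbouring pairs were called. Under the other settings the counts were 5 to 6 (CD4T, CD8T), 6 to 7 (NKT, NK, KSL, LinNeg) and 7 (Monocyte, Neutrophil, Erythroblast). The count against all 9 was 4 without B replicate 2, without CD8T replicate 2 and with limma's treat against a log2 difference of 1, in each of which Bach2 was not called over CD8T, and 6 with the second brightest probe sets, a setting chosen after seeing the data, in which Bcl11a entered and the counts against KSL and LinNeg were 7. Treat also ended the calls of Bach2 over CD4T (adjusted p = 0.0685) and of Foxo1 over NK (adjusted p = 0.265). Foxo1 over NKT was called with arrays centred on their medians (1.099, adjusted p = 0.011) and without B replicate 2, and Bcl11a over LinNeg with the mean of all probe sets (1.14). The called neighbouring pairs, 11 in all, were 6 with the mean of all probe sets and 7 with treat; the cause was not tested. Foxo1 in B minus CD4T turned to -0.156 without B replicate 1 (up to 0.34 without other arrays). Foxo1 in B minus CD8T turned to -0.091 without B replicate 1, to -0.143 without CD8T replicate 2 (up to 0.457 without other arrays) and to -0.018 on another probe set; none of these was called in either direction. Scaling moved the median of all genes by over 0.1 in 4 comparisons: it was 0.08 in B minus CD4T and 0.05 in B minus NKT with centred arrays, beside -0.07 and -0.08 as deposited, and -0.02 in B minus Neutrophil and -0.10 in B minus Erythroblast after quantile normalization, beside 0.08 and 0.04. Replicate numbers showed no strong shift shared between populations (45 correlations of replicate differences, -0.09 to 0.21, median 0.01, 1 above 0.1). Such correlations cannot show whether samples were paired, since the animals behind each replicate are not given. With the replicate number as a block the counts were 6 against CD4T, 5 against all 9 and 11 neighbouring pairs, as without it. Treat has no F test and gives no value there. At 2 arrays per population, differences near 1 are at the limit of what was called.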
